A study of Mus musculus with 4 samples.

Results

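The cells described here were Cd3-detected cells of a CD4 T cell sort, taken during graft-versus-host disease, that carried transcripts of at least 2 of 5 genes (Cxcr3, Klf3, Eomes, Art2b and Ifitm10) and no transcript of Il10. They were chosen cell by cell from unique molecular identifier (UMI) counts, each UMI standing for 1 captured transcript. A member had at least 1 UMI of 2 or more of the 5 genes, no UMI of Il10 or Tcf7, at least 1 UMI of Cd3e, Cd3d or Cd3g, and UMIs of fewer than 4 of 8 cell cycle genes (Mki67, Rrm2, Ube2c, Nusap1, Birc5, Pclaf, Hist1h2ap and Stmn1). This gave 3979 members among 34918 cells, 1694 of 19020 in library 1 and 2285 of 15898 in library 2. The share was 8.91% (exact 95% binomial interval 8.51 to 9.32) in library 1 and 14.4% (13.8 to 14.9) in library 2, intervals that cover counting error only and do not overlap. Their mean was 11.6% ± 3.87 (SD, n = 2).

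The 5 genes belong to different parts of T cell biology. Cxcr3 is a chemokine receptor of type 1 helper and cytotoxic T cells, and Eomes is a T-box transcription factor that acts beside T-bet (Tbx21) in cytotoxic and Il10-producing CD4 T cells. Klf3 is a zinc-finger repressor of the Krüppel-like family, Art2b is an ADP-ribosyltransferase anchored to the T cell surface that uses extracellular NAD, and Ifitm10 belongs to the interferon-induced transmembrane family. Type 1 regulatory T cells are Foxp3-negative CD4 cells that secrete interleukin 10, the cytokine encoded by Il10. Maf, Prdm1, Batf and Irf4 are transcription factors known for their part in Il10 transcription.

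The samples were labelled as CD4 T cells, sorted by flow cytometry 4 weeks after transplantation from mice labelled BALB/c RAG2-/- TS1 Tg. TS1 T cells carry a transgenic T cell receptor, and loss of RAG2 removes rearrangement of others. Each of the 2 expression libraries was a pool of 5 compartments (spleen, colon, skin, and the epithelium and lamina propria of the small intestine), and every group below comes from both pools, so that all groups share strain, treatment and time. The study has no untreated sample, and no label ties the 2 replicates to different animals. Each p-value below sets a difference between classes against its variation over 2 pooled libraries, with the library itself a term of the fit. It therefore does not measure variation between animals. The 2 accompanying hashtag libraries held 0 hashtag features among 31053, so no cell could be placed in a tissue.

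Library 1 held 89427990 UMIs and library 2 held 108082997, with medians of 2688 and 3699 UMIs per cell after cells with under 1000 UMIs, under 500 genes or over 10% mitochondrial UMIs were left out. The libraries shared 599 cell barcodes, against 44.5 expected if each had drawn at random, and 16 and 22 members sat at such barcodes. Without them the share of members was 9.11% and 14.8%. Members had a median of 3070.5 and 3676 UMIs, above the 2602 and 3638 of the other Cd3-detected cells. Cells with an Il10 UMI had medians of 3133 and 4608. Since finding a transcript depends on depth, every comparison below used cells thinned at random to 1500 UMIs, which 1597 and 2237 members reached, and levels are summed UMI counts scaled to a common total (CPM). Gene length does not enter such counts, since each transcript is tagged at its 3′ end.

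The genes in the label were found together in few members. Cxcr3 had a UMI in 63.5% and 64.9% of members, Art2b in 55.1% and 60.5%, Eomes in 44.5% and 45.6%, Klf3 in 34.4% and 36.2%, and Ifitm10 in 35.2% and 29.6%. Only 91 members of library 1 (5.37%) and 143 of library 2 (6.26%) had Cxcr3, Klf3 and Eomes together, and 102 and 103 had none of the 3. Most members, 73.3% and 70.2%, carried exactly 2 of the 5 genes, and 12 and 14 carried all 5. The members were therefore a set defined by any pair of these genes, and the results below describe that set.

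**Figure D1:**
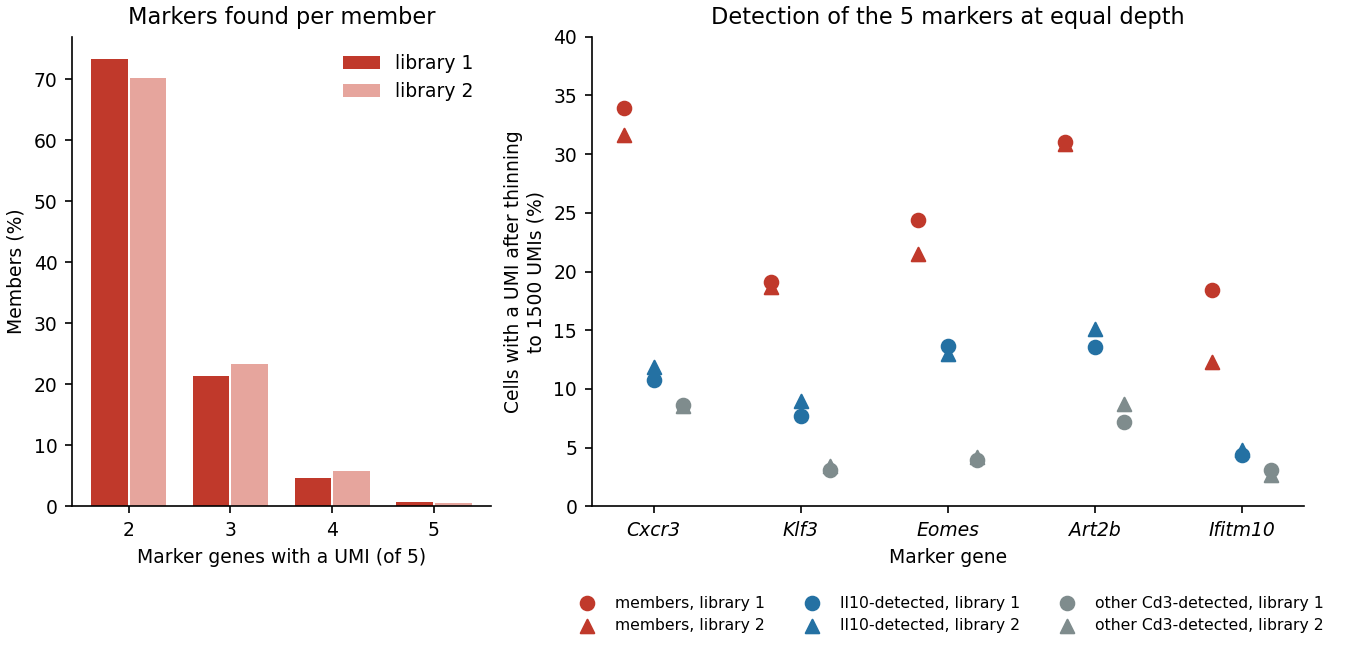
Left, share of members (vertical axis, %) by the number of marker genes with a UMI (horizontal axis), for library 1 and library 2. Right, share of cells with a UMI of each marker after thinning to 1500 UMIs, with members in red, Il10-detected cells in blue and other Cd3-detected cells in grey, circles for library 1 and triangles for library 2. Exactly 2 markers were found in 73.3% and 70.2% of members, and each marker was found more often in Il10-detected cells than in the other Cd3-detected cells.

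These markers chose the members, so their levels are a description and carry no test. At equal depth Eomes was at 188.7 and 160.9 CPM in members, against 29.7 and 31.6 CPM in other Cd3-detected cells. Klf3 stood at 146.9 and 146.6 CPM in members against 22.9 and 25.8 CPM. The same 2 genes were also present in cells with an Il10 UMI: Eomes was found in 13.7% and 13.0% of them after thinning and Klf3 in 7.73% and 8.98%, against 3.97% and 4.22% (Eomes) and 3.05% and 3.42% (Klf3) of other Cd3-detected cells. Free RNA, measured in barcodes with fewer than 100 UMIs, held Eomes at 57.7 and 44.5 CPM and Cxcr3 at 78.4 and 89.8 CPM. Each of the 5 markers was lower in free RNA than in members and higher than in the other Cd3-detected cells. These values give the make-up of free RNA, and how much of it each cell held was not measured. Its part in the detection of the markers was not tested.

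Il10 was found more often in cells with 2 of these genes than in cells with none. Among Cd3-detected cells that met the Tcf7 and cell cycle conditions at equal depth, an Il10 UMI was found in 3.86% (interval 3.47 to 4.28) of those with no marker and 7.61% (5.72 to 9.89) of those with 2 markers in library 1. In library 2 the values were 4.54% (4.11 to 5.00) and 6.90% (5.29 to 8.81). Cells with 1 marker had 4.73% (4.02 to 5.53) and 6.43% (5.63 to 7.30) in libraries 1 and 2. Those with 3 markers had 6.43% (2.98 to 11.9) and 7.64% (3.87 to 13.3). In library 2 the share with 1 marker was thus close to that with 2. Il10 and the markers are genes of the rule, so these shares are a description with no test. At full depth, 254 and 399 cells met every condition of the rule except that they had an Il10 UMI.

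How many cells met the rule depended on depth. With the rule applied to thinned counts, 5.02% and 6.31% of cells were members. The share of Cd3-detected cells that were members was 2.61% and 4.72% at 1000 to 1500 UMIs, 10.8% and 14.4% at 2500 to 5000, and 6.37% and 10.9% at 10000 or more. At equal depth, 6.29% (5.91 to 6.69) and 7.79% (7.36 to 8.23) of Cd3-detected cells carried at least 2 markers. Among cells in which neutrophil genes made up at least 10% of UMIs, 1 of 65 (1.54%, interval 0.0389 to 8.28) and 1 of 75 (1.33%, 0.0338 to 7.21) did, with median depths before thinning of 4345 and 10654 UMIs against 3138 and 3860. These shares rest on the genes of the rule and are a description with no test.

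Cells on either side of the marker threshold differed by degrees in Gzmk and Il13, but not in Gzma and Itgae. Members with exactly 2 markers had Gzmk at 586.1 and 554.0 CPM, cells with 1 marker that met all other conditions had 447.2 and 398.9, and cells with none had 287.9 and 251.2. Il13 ran the other way, at 23.0 and 21.3, 45.9 and 39.7, and 110.98 and 158.2 CPM. Gzma was at 12023 and 11634 CPM with exactly 2 markers, 20230 and 18899 with 1, and 18087 and 19343 with none. Itgae was at 184.2 and 195.9, 313.4 and 337.5, and 306.6 and 352.8 CPM in that order. For these genes cells with 1 marker were thus near cells with none. Cells with at least 2 markers kept out by a Tcf7 UMI had Gzma at 3632 and 4091 CPM, below the 9889 and 9899 CPM of all members. Those kept out by 4 or more cell cycle genes had it at 11668 and 14720 CPM.

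Compared with the other Cd3-detected cells without Il10, members had more transcript of Gzmk, Cd27, Maf, Klrg1 and Ccl5, and less of the type 2 and tissue cytokines Il13, Csf2, Il22 and Ccl1, of Gzma, and of the residency integrin Itgae. Of 9536 genes tested, 645 were higher in members (6.76% of all tested) and 947 lower (9.93%), 16.7% in all, at an adjusted p under 0.05 in edgeR's quasi-likelihood test. The 5 markers had been picked as leading genes of a cluster of these same cells, so these calls and the list counts that follow describe the set and are no independent evidence for it. Genes of the rule were left out, and the other cells numbered 16005 and 12105. The 2 libraries gave the same direction for 1592 of the 1592 genes called. A test on 2 libraries favours genes whose direction agrees in both, so this count is no separate replication.

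Cytotoxic genes split into those above and those below. Gzmk, a granzyme with tryptase activity, was at 628 and 587 CPM in members of libraries 1 and 2 and at 348 and 327 CPM in the other cells, a log2 difference of 0.85 ± 0.046 (SE). Gzma, the tryptase-type granzyme most abundant in these cells, was at 9889 and 9899 against 16900 and 16912 CPM (-0.77 ± 0.033). Gzmb, a granzyme that activates caspases, was at 3755 and 3839 against 5470 and 5146 CPM (-0.48 ± 0.037). In none of these 3 genes did the members' values overlap those of the other cells, which was so for 1538 of the 1592 genes called. Of 12 cytotoxic genes tested, 6 were higher (Gzmk, Gzmm, the pore protein Prf1, Nkg7, Fasl and Cst7) and 5 lower (Gzma, Gzmb, Gzmc, Ctsw and Srgn), with a median log2 difference of 0.03 against 0.00 over all genes tested. Only 3 (Gzmk, Gzmm and Prf1) were higher when the other cells were held to the members' Tcf7 and cell cycle conditions. On thinned counts the rule gave 3 higher as well (Gzmk, Prf1 and Fasl). The same 5 were lower both times.

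The T cell co-receptors and adaptors that stood highest in members were Cd27, a costimulatory receptor of the TNF receptor family, Lax1, a membrane adaptor that dampens receptor signalling, and Sh2d1a (SAP), the adaptor of SLAM receptors. Cd27 was at 239.6 and 243 CPM in members and 128 and 136 CPM in other cells (0.87 ± 0.057), Lax1 at 100.2 and 102 against 51.6 and 49.9 (1.00 ± 0.076) and Sh2d1a at 442 and 377 against 235 and 228 (0.82 ± 0.055). Chst2, Ifi209, Itga4, Rassf2, St3gal6 and Tapbpl completed, with Gzmk, the 10 largest rises among genes of 50 CPM or more, with log2 differences from 0.77 (Tapbpl) to 0.90 (Chst2). Itga4, the alpha 4 integrin chain used to enter inflamed tissue, was at 186 and 176 against 100.2 and 109 CPM. Klrg1, an inhibitory lectin-like receptor of differentiated T cells, was at 38.8 and 33.4 against 15.8 and 15.9 CPM, while Klrc1, Klrc2 and Klrk1 of the same family were lower (log2 differences -1.13, -0.96 and -0.73).

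Type 2 and effector cytokine genes were all lower in members: 8 of 8 tested, with a median log2 difference of -1.58 against 0.00 over all genes. Il13, which drives mucus and eosinophil responses, was at 22.5 and 23.5 CPM in members and 77.9 and 89.6 in the other cells (-1.87 ± 0.11). Csf2, which encodes GM-CSF, was at 60.9 and 49.8 against 172 and 169 CPM (-1.64 ± 0.082), and Ccl1, the ligand of Ccr8, at 139.8 and 195 against 514 and 473 CPM (-1.54 ± 0.082). Il22 was at 4.17 and 2.09 against 12.5 and 9.55 CPM, and Il1r2, a decoy receptor for interleukin 1, at 19.2 and 14.6 against 55.2 and 47.3. These differences held for 8 of 8 genes when the other cells were held to the members' Tcf7 and cell cycle conditions, and for 7 of 8 with the rule applied to thinned counts.

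Tissue residency genes were mostly lower, with 9 of 14 below and 1 (Prdm1) above, and a median log2 difference of -0.39. Itgae, the alpha E integrin chain CD103 that binds E-cadherin of epithelium, was at 154 and 167 CPM in members against 266 and 297 (-0.81 ± 0.059), and Ahr, a ligand-activated factor of barrier lymphocytes, at 15.4 and 18.5 against 33.9 and 36.7 CPM. Cd8a, which some CD4 cells of the gut epithelium express, was at 321 and 303 against 529 and 507 CPM (-0.73 ± 0.062). Genes of circulation and egress split, with 4 of 13 higher and 4 lower. S1pr1, the receptor for exit from tissue, stood at 9.60 and 10.7 against 9.19 and 9.85 CPM (log2 difference 0.10 ± 0.21) and Klf2, its regulator, at 230.4 and 270.0 against 215 and 239.7 CPM (0.14 ± 0.057), and neither passed the threshold. With the other cells held to the members' Tcf7 and cell cycle conditions, Klf2 passed (0.40) and the list had 6 higher and 5 lower. With the rule on thinned counts both Klf2 (0.37) and S1pr1 (1.04) passed.

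The genes linked to Il10 transcription were divided, while Il10 itself was undetected by rule. Of 16 type 1 regulatory genes, 6 were higher (Maf, Tigit, Il27ra, Batf, Entpd1 and Rgs16) and 4 lower (Havcr2, Pdcd1, Icos and Nfil3), with a median log2 difference of 0.20. Maf was at 265 and 293 CPM in members and 159.8 and 178 in other cells (0.73 ± 0.054). Pdcd1, which encodes the inhibitory receptor PD-1, was at 71.4 and 88.2 against 148 and 123 CPM (-0.72 ± 0.088), and Lag3 at 199 and 181 against 194 and 204, which did not pass. The balance of the list depended on the rule: with at least 3 markers 4 were higher and 4 lower (median -0.07), and with the rule on thinned counts 4 higher and 5 lower (median 0.05). Batf and Rgs16 were then no longer called and Lag3 was called lower, at log2 differences of -0.30 and -0.60.

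Type 1 helper genes were divided as well, 5 higher and 5 lower of 13. The balance was 3 higher and 6 lower with the other cells held to the members' Tcf7 and cell cycle conditions. It was 3 and 5 with the rule on thinned counts. Ccl5, the most abundant chemokine transcript named here, was at 42255 and 42246 CPM in members against 29310 and 33222 (0.44 ± 0.027). Tbx21, which encodes T-bet, was at 28.4 and 33.7 against 43.7 and 42.1 CPM (-0.44 ± 0.11), and Il18r1 and Il18rap, both chains of the interleukin 18 receptor, were lower (-0.53 and -0.68). Interferon response genes had 4 of 14 higher and 0 lower, with Ifit3 at 20.0 and 14.3 against 7.12 and 10.5 CPM and Mx1 at 10.0 and 12.8 against 5.79 and 8.0. Their count was 3 higher and 2 lower (Isg20 and Oas1a) of 13 with the rule on thinned counts. It was 4 higher and 1 lower (Isg20) with the other cells held to those conditions. Of 4 Ifitm genes, the family of the marker Ifitm10, 3 were lower: Ifitm1 was at 157 and 119 against 487 and 341 CPM (-1.57 ± 0.074), Ifitm2 at 279 and 243 against 856 and 639 and Ifitm3 at 95.2 and 110.0 against 273 and 219.

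Of glycolysis and hypoxia genes, 11 of 13 were lower and 0 higher (median -0.33), among them the triose isomerase Tpi1 at 81.4 and 67.7 against 152 and 124 CPM. Cholesterol synthesis had 7 of 13 lower and 0 higher, and oxidative phosphorylation 1 of 14 lower. The inducible heat shock genes Hspa1a and Hspa1b were lower (-1.32 and -1.47), and Lmna, the gene of nuclear lamins A and C, was lower as well (-1.78). Ribosomal protein genes had 1 of 13 higher and 1 lower. Cd4 stood at 181 and 198 CPM in members and 204 and 218 in other cells and did not pass (-0.15 ± 0.057).

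Markers of other cell types moved with this comparison. Of 8 neutrophil genes tested 6 were lower in members, of 5 erythroid genes 5, of 7 myeloid genes 6 and of 2 basophil or mast cell genes 2. Of 7 genes of CD8, natural killer or gamma-delta T cells, 4 were lower (Cd8a, Tcrg-C1, Tcrg-C4 and Tyrobp) and Trdc was higher, and the list summed to 836.6 and 872.3 against 1051 and 1084 CPM; its part in the lower Gzma and Itgae was not tested. The summed level of the 9 neutrophil genes was 262.2 and 2074 CPM in members against 1846 and 2907 CPM in the other cells, and in free RNA S100a8 alone was at 748.3 and 1079 CPM. Without cells with at least 2% of UMIs from genes of such types, Ngp, Camp, S100a8 and S100a9 were no longer lower (log2 differences of 0.073 to 0.15), while the counts of genes called, 704 higher and 986 lower, and Gzmk (0.84), Il13 (-1.87) and Itgae (-0.81) stayed near their values above. Of regulatory T cell genes, Foxp3 and Gpr83 were at 0 in members of both libraries and 5 of the 6 tested were lower, with Capg at 113 and 126 against 317 and 268 CPM. In the other cells 2 of the 8 genes of this list were under 5 CPM in each library, and Gpr83 was at 0 in library 2. Of B cell genes, Cd79a, Ms4a1 and Jchain were at 0 in both libraries, and Igkc, the 1 tested, was higher at 52.6 and 46.5 against 21.9 and 25.4 CPM; its part in other results was not tested.

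Cell cycle and Tcf7 conditions apply to the members and not to all of the other cells. With the other cells held to those conditions, 1208 genes were called, and the log2 differences of Gzmk, Maf and Gzma were 0.86, 0.70 and -0.96. With at least 3 markers required, the log2 differences of Gzma, Cd8a and Itgae were -1.68, -1.61 and -1.60, against -0.77, -0.73 and -0.81 with at least 2.

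**Figure D2:**
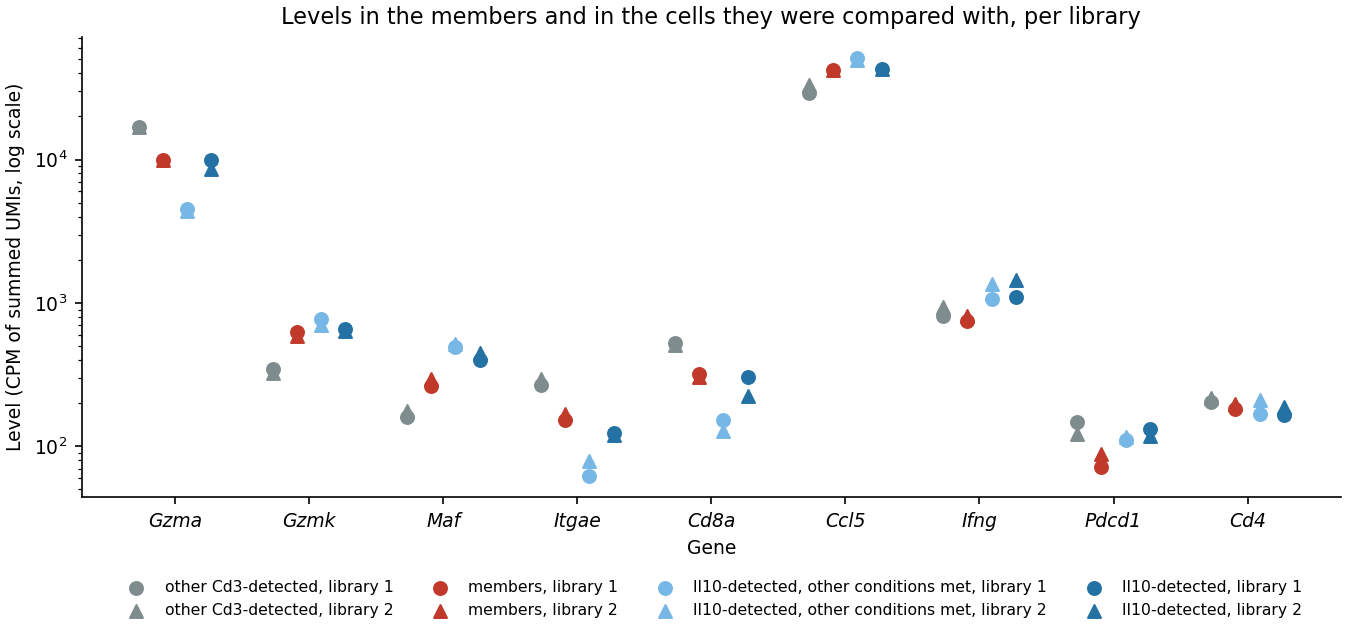
Level of 9 genes (CPM of summed UMIs, log scale) in other Cd3-detected cells (grey), members (red), Il10-detected cells that met every other condition (light blue) and all Il10-detected cells (dark blue), with circles for library 1 and triangles for library 2. Gzmk and Maf of members lie above the other Cd3-detected cells and Gzma, Itgae and Cd8a lie below them, while Cd4 of members, at 181 and 198 CPM, lies close to all other classes.

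Compared with all 1273 and 1467 Il10-detected cells, members had less transcript of the chemokines Ccl4 and Ccl3, of Irf8, Il21, Maf and Ifng, and of genes induced by receptor signalling. Of the same 9536 genes, 184 were higher in members (1.93%) and 493 lower (5.17%), 7.1% in all. The classes were split on Il10 UMIs of these same cells, which favours a difference in genes that go with Il10. These calls describe the classes and are no independent evidence for them. Ccl4, a chemokine released by activated T cells, was at 4009 and 4416 CPM in members and 9465 and 9532 in Il10-detected cells, a log2 difference of -1.22 ± 0.036 (adjusted p = 9.06e-18, edgeR). Irf8 was at 30.1 and 29.5 against 85.1 and 79.4 CPM (-1.51 ± 0.13, adjusted p = 2.30e-08, edgeR) and Maf at 265 and 293 against 399 and 447 CPM (-0.65 ± 0.059, adjusted p = 5.39e-08, edgeR). The values of members and Il10-detected cells did not overlap for any of these 3 genes, which was so for 645 of the 677 genes called.

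Type 1 regulatory genes were lower in members for 11 of 16 and higher for 1 (Il27ra), with a median log2 difference of -0.66 against 0.00 over all genes tested. Il21, a helper cytokine that promotes Il10, was at 8.77 and 15.2 against 45 and 38.5 CPM. Of 13 checkpoint genes 7 were lower and 1 (Cd160) higher. Ctla4 was at 202 and 289 against 348 and 452 CPM (-0.75 ± 0.063), Havcr2, which encodes TIM-3, at 40.9 and 49.2 against 77.3 and 85.9, and Nr4a1, an immediate early gene of receptor signalling, at 84.3 and 118 against 163 and 203 (-0.89 ± 0.084). NF-kB and AP-1 activation genes were lower for 11 of 19 and higher for 1, and Tnfrsf4, the costimulatory receptor OX40, was lower (-0.93).

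Metabolic genes followed the same direction in part. Of 13 glycolysis and hypoxia genes 6 were lower, with Hif1a, the oxygen-sensitive factor, at 252 and 255 against 367 and 409.9 CPM (-0.67 ± 0.062), and 0 were higher. Top2a, Tyms, Cks1b and Mcm6, genes of DNA synthesis and division, were lower (-1.25, -1.22, -1.44 and -1.03), a direction that the rule's limit on cell cycle genes favours. Gzmb was lower as well, at 3755 and 3839 against 5641 and 4886 CPM.

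The genes above in members were fewer. Of 12 progenitor or stem-like genes, 3 were higher (Slamf6, Il7r and Bcl2) and 1 lower (Satb1), with Slamf6, a SLAM receptor, at 35.9 and 38.1 against 21 and 22.3 CPM (0.73 ± 0.17). Irf9, a component of the interferon-activated complex, was at 55.1 and 53.6 against 31.8 and 32.5 CPM, and Il16 and Cd226 were higher by 0.65 and 0.62. Gzmk (628 and 587 against 656 and 633 CPM) and Gzma (9889 and 9899 against 9934 and 8628 CPM) did not pass, with log2 differences of -0.14 ± 0.050 and 0.05 ± 0.033. For Gzma this depended on the rule: its log2 difference was -0.63 with the rule on thinned counts, -0.91 with at least 3 markers and -0.92 with at least 2 of Cxcr3, Klf3 and Eomes, all past the threshold, but 0.12 without shared barcodes and 0.16 without the cells with most UMIs, also past it. The log2 difference of Itgae was 0.36 with the rule as given, but -0.47 with at least 3 markers required, -0.54 with at least 2 of Cxcr3, Klf3 and Eomes, and -0.28 with the rule on thinned counts. The summed neutrophil genes were at 262.2 and 2074 CPM in members against 817.1 and 1627 CPM in Il10-detected cells. Without cells with at least 2% of UMIs from genes of other cell types, 730 genes were called, 668 of them among the 677.

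**Figure D3:**
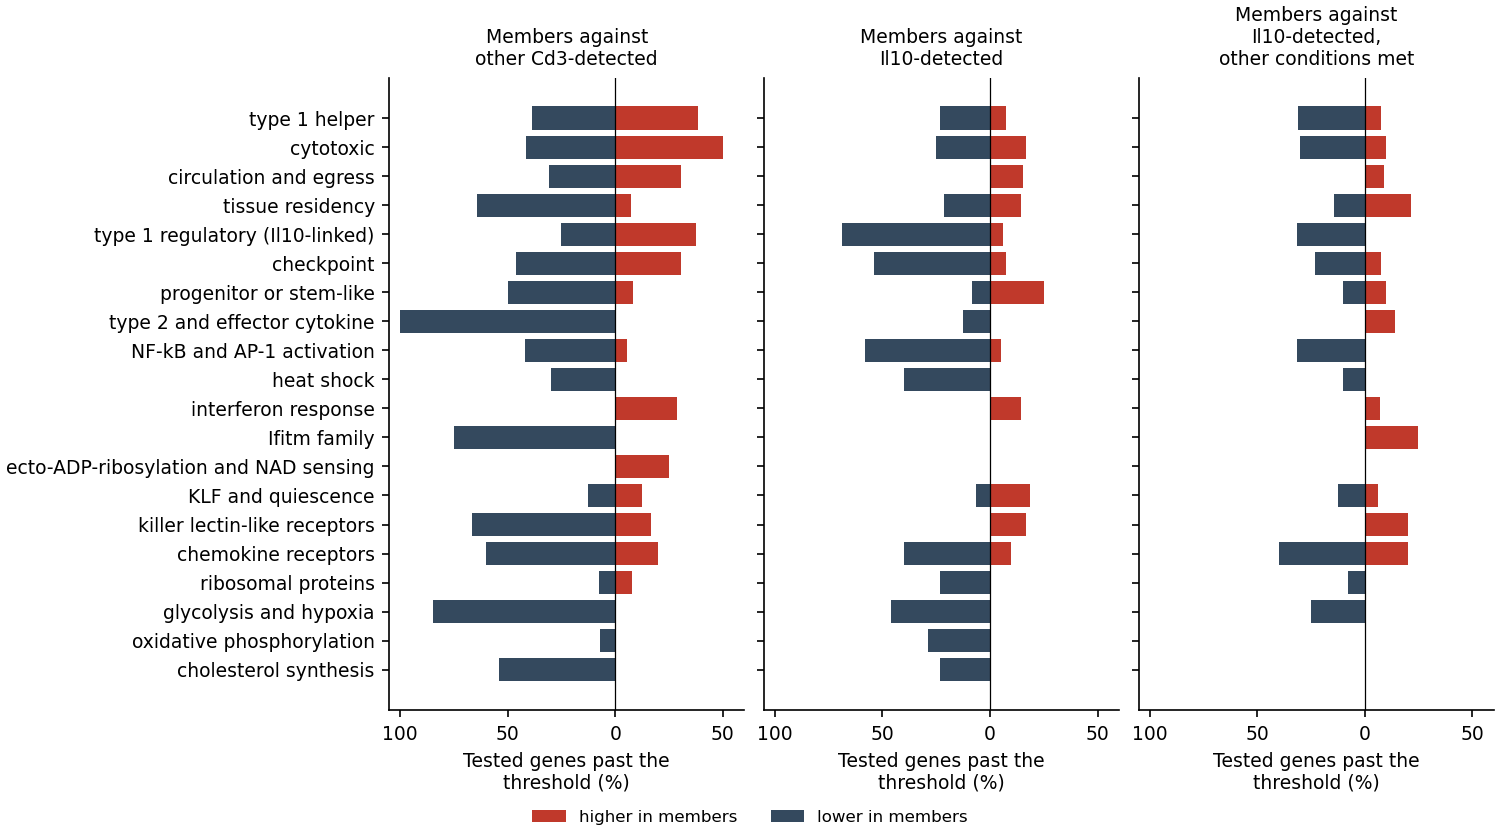
Share of tested genes of each list (vertical axis) that were past the edgeR threshold and higher (red, to the right) or lower (dark blue, to the left) in members, against other Cd3-detected cells, against all Il10-detected cells and against Il10-detected cells that met every other condition. All 8 tested type 2 and effector cytokine genes were lower than in other Cd3-detected cells, and 11 of 16 type 1 regulatory genes were lower than in Il10-detected cells.

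The closest comparison set members against the 254 and 399 cells that met every condition except for an Il10 UMI, so that Il10 detection alone was the criterion. Those cells were deeper before thinning, with medians of 3970.5 and 4860 UMIs against 3070.5 and 3676 in members. After thinning, an Il10 UMI was left in 52.4% and 50.8% of them, so that Il10 transcripts were often missed at that depth. A member without an Il10 UMI may therefore still express Il10. Of 8109 genes tested, 48 were higher in members (0.592%) and 104 lower (1.28%), 1.87% in all. Members had more transcript of Gzma, Cd8a, Itgae and Plac8 and less of Ccl4, Irf8, Maf, Prdm1 and Nr4a1. The fit had 1 residual degree of freedom, and DESeq2's Wald test called 22 of these genes and a fit without the library block 33. Il10 UMIs of these same cells drew this split as well, so the calls are again a description.

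Of the 4 transcription factors named above, Maf, Prdm1 and Batf were lower in members, and Irf4, whose log2 difference was -0.89 ± 0.41, did not pass. Maf was at 265 and 293 CPM in members and 489 and 513 in the matched Il10-detected cells (-0.88 ± 0.089, adjusted p = 1.31e-19, edgeR). Prdm1, which encodes Blimp-1, was at 48.8 and 50.7 against 94.1 and 92.6 CPM (-0.94 ± 0.19, adjusted p = 1.43e-04, edgeR), and Batf, an AP-1 family factor, at 159 and 165 against 306 and 244 CPM (-0.77 ± 0.12, adjusted p = 1.04e-08, edgeR). Irf8, a related factor, was at 30.1 and 29.5 against 99.5 and 57.2 CPM (-1.35 ± 0.22). No value of members overlapped a value of the matched cells for Maf, Prdm1, Batf and Irf8, which was so for 143 of the 152 genes called. With at least 3 markers required, Maf still passed, while Prdm1 (-0.64), Batf (-0.47) and Irf8 (-0.54) kept their direction and did not. Type 1 regulatory genes were lower for 5 of 16 and higher for 0, with a median log2 difference of -0.64 against 0.01 over all genes.

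The chemokines Ccl3, Ccl4 and Ccl5 were lower in members, and Ccl1 was higher, at 139.8 and 195 against 80.6 and 135 CPM (0.58 ± 0.15), a call that was lost with DESeq2, without the library block, at 1000 UMIs, with a second random thinning and with the rule on thinned counts. Ccl4 was at 4009 and 4416 CPM in members and 10030 and 8791 in the matched cells (-1.19 ± 0.032), a call that held under each alternative tested, with values from -1.71 to -0.99 over those alternatives and single libraries. Ccl3 was at 817 and 1002 against 1538 and 1657 and Ccl5 at 42255 and 42246 against 51379 and 49300 CPM. Of 19 NF-kB and AP-1 genes 6 were lower and 0 higher, with Nfkbid, an atypical NF-kB inhibitor, lower (-1.005), and Tnfaip3, which encodes A20, as well (-0.64). Nr4a1 was at 84.3 and 118 against 145 and 231 CPM and Ctla4 at 202 and 289 against 417 and 412. Ifng was at 744 and 814 against 1059 and 1357 CPM (-0.68 ± 0.058).

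Of 10 cytotoxic genes 1 was higher in members (Gzma) and 3 lower (Gzmk, Nkg7 and Srgn), and of 14 residency genes 3 were higher (Itgae, Itga1 and Gpr55) and 2 lower (Rgs1 and Prdm1), with medians of -0.08 and -0.05. Gzma was at 9889 and 9899 CPM in members and 4546 and 4406 in the matched cells (1.11 ± 0.033), Itgae at 154 and 167 against 61.8 and 79.1 (1.13 ± 0.17) and Cd8a at 321 and 303 against 153 and 128 (1.13 ± 0.12). Plac8, a small cysteine-rich protein of leukocytes, had the largest rise among genes of 50 CPM or more, at 63.5 and 65.9 against 24.2 and 13.5 CPM (1.84 ± 0.30, adjusted p = 1.81e-07, edgeR). Gzmk was lower in members, at 628 and 587 against 769 and 707 CPM (-0.31 ± 0.070), and Gzmb, at 3755 and 3839 against 3839 and 3436, did not pass but was lower with at least 3 markers (-0.32). Cd4 did not pass either, at 181 and 198 against 169 and 210.4 CPM. Genes of CD8, natural killer or gamma-delta T cells summed to 836.6 and 872.3 CPM in members against 629.0 and 597.6 CPM in the matched cells, with 3 of 7 tested higher, and its part in these results was not tested. Neutrophil genes summed to 262.2 and 2074 against 99.5 and 1721 CPM, and without cells with UMIs of other cell types 140 genes were called, 140 of them among the 152.

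Before thinning, the 2 classes differed in which markers they carried, and this moved with the last result. At that full depth Eomes had a UMI in 44.5% and 45.6% of members but in 65.4% and 57.4% of the matched Il10-detected cells. The pair of Cxcr3 and Art2b alone made up 18.0% and 19.4% of members but 10.6% and 12.5% of the matched cells. The matched cells were deeper, so part of this can come from depth. After thinning, Eomes was found in 24.4% and 21.5% of members and in 34.3% and 19.9% of the matched cells. Library 2 thus no longer showed the difference in Eomes. Among Eomes-detected cells only, Gzma was at 4755 and 5457 CPM in members and 3984 and 3254 CPM in matched Il10-detected cells, closer than in the full sets. Among cells without Eomes it was at 14030 and 13615 CPM in members and 5624 and 5953 CPM in the matched cells, about as far apart as in the full sets. In Eomes-detected cells Ccl4 was at 4488 and 5028 against 10671 and 9339 CPM, and Maf at 306.7 and 332.4 against 523.5 and 452.3 CPM, still apart in both libraries. With at least 3 markers required, the log2 difference was 0.20 for Gzma and 0.38 for Itgae, neither past the threshold, and -1.15 for Ccl4 and -0.61 for Maf, both past it. How far the marker mix accounts for the difference in Gzma was not tested.

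Within the members, the markers found in a cell went with different levels of other genes. The most frequent pair in members with exactly 2 markers was Cxcr3 with Art2b, in 305 and 443 cells. Their Gzma was at 25238 and 22084 CPM, above every other pair, whose values ran from 2583 to 14574 CPM in library 1 and from 2754 to 14944 CPM in library 2. Their Itgae, at 375.4 and 365.4 CPM, and Cd8a, at 769.1 and 674.3 CPM, were the highest of the 10 pairs in both libraries as well. These levels were also above those of the other Cd3-detected cells. Those cells had Gzma at 16900 and 16912, Itgae at 266 and 297 and Cd8a at 529 and 507 CPM. The lower Gzma, Itgae and Cd8a of the members as a whole thus did not hold for this pair.

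The pair of Klf3 and Eomes had low Gzma and Itgae. Members with Klf3 and Eomes alone (84 and 125 cells) had Gzma at 4042 and 3433 CPM, Itgae at 16.7 and 44.4 CPM and Gzmk at 900.0 and 805.6 CPM. Members with Cxcr3 and Eomes (166 and 222 cells) had Gzma at 4921 and 4614, Itgae at 87.7 and 96.6 and Gzmk at 640.4 and 735.2 CPM. Gzma differed by whether Art2b or Eomes had been found. With Art2b and no Eomes, Gzma was at 11444 CPM or more, and with Eomes and no Art2b at 4921 CPM or less. Members with both Eomes and Art2b (124 and 185 cells) lay between, at 7420 and 10993 CPM. Of pairs with neither, Cxcr3 and Klf3 had Gzma at 7686 and 6193 CPM and Cxcr3 and Ifitm10 at 8436 and 7052. Klf3 and Ifitm10 had it at 2583 and 5320 CPM, the lowest of all pairs in library 1. Low Gzma was thus not limited to pairs with Eomes. Several pairs held few cells, such as Klf3 with Ifitm10 (38 and 52), whose Gzmk was at 958.3 in library 1 and 522.9 CPM in library 2.

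**Figure D4:**
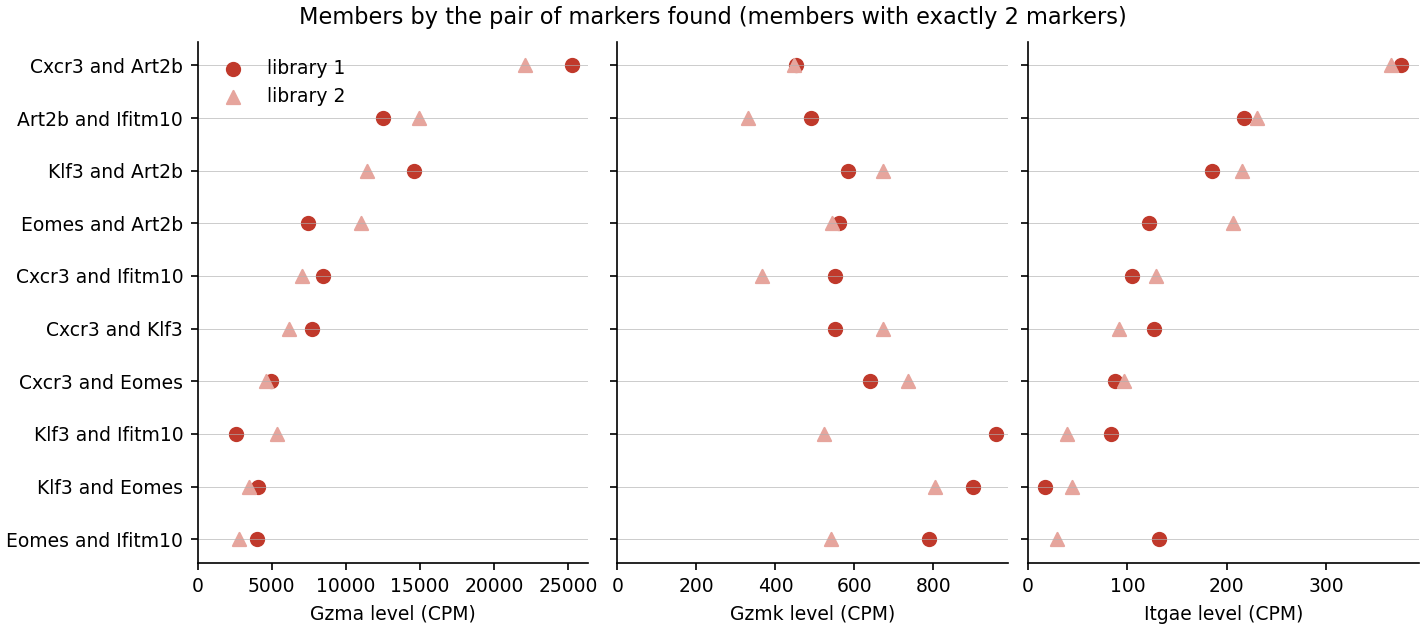
Level of Gzma, Gzmk and Itgae (CPM, linear scale) in members with exactly 2 markers, by the pair of markers found (vertical axis, ordered by mean Gzma), with circles for library 1 and triangles for library 2. The pair of Cxcr3 and Art2b has the highest Gzma and Itgae, and the pair of Klf3 and Eomes has Gzma at 4042 and 3433 CPM.

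The split by Eomes was tested over all members, with Eomes and the other genes of the rule left out. Members with an Eomes UMI (754 and 1042) had more Gzmk, Maf, Rgs16, Penk and Ccl3 and less Gzma, Gzmb, Itgae, Cd8a and Tcrg-C4 than members without (940 and 1243). Of 8072 genes tested, 45 were higher with Eomes (0.557%) and 89 lower (1.1%), 1.66% in all. Eomes UMIs of these same cells drew the split, so these calls describe the 2 sides and are no independent evidence for them. A member without an Eomes UMI had by rule at least 2 of the other 4 genes, so that the 2 sides also differed in those. The pair of Cxcr3 and Art2b lies wholly on the side without Eomes.

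Among cytotoxic genes, Gzma was at 4755 and 5457 CPM in Eomes-detected members of libraries 1 and 2 and at 14030 and 13615 in members without Eomes (-1.43 ± 0.034, adjusted p = 3.23e-23, edgeR). Gzmb was at 2696 and 2927 against 4609 and 4603 CPM (-0.70 ± 0.031), and Gzmk, in the other direction, at 745 and 697 against 534 and 495 CPM (0.49 ± 0.052, adjusted p = 1.65e-07, edgeR). None of the 3 overlapped between the sides, which was so for 125 of the 134 genes called. The chemokines Ccl3 (942 and 1204 against 717 and 834 CPM), Ccl4 (4488 and 5028 against 3623 and 3905) and Ccl5 (45030 and 43676 against 40017 and 41050) were higher with Eomes.

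Of 14 residency genes 4 were lower with Eomes and 0 higher. Itgae was at 81.3 and 98.8 against 212 and 225 CPM (-1.26 ± 0.11, adjusted p = 1.69e-09, edgeR), Itga1, the collagen-binding alpha 1 integrin, at 29.9 and 33.4 against 61.1 and 85.4 (-1.23 ± 0.17), and Gpr55, a lipid receptor of intestinal lymphocytes, at 10.3 and 5.89 against 38.5 and 33.4. Cd8a was at 185 and 179.9 against 431 and 406 CPM and Tcrg-C4, a constant segment of the T cell receptor gamma locus, at 48.6 and 52.3 against 152 and 169.7 (-1.67 ± 0.13). Cd244, the SLAM family receptor 2B4, was lower (-1.28). The survival genes Bcl2 (156 and 152 against 229 and 235 CPM) and Il7r (95.4 and 105 against 152 and 142) were lower too, and 3 of 3 Ifitm genes tested were lower, among them Ifitm3 (-0.76).

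Of 16 type 1 regulatory genes 3 were higher with Eomes (Maf, Entpd1 and Rgs16) and 0 lower. Maf was at 307 and 332 CPM with Eomes and 232 and 260.0 without (0.38 ± 0.076, adjusted p = 0.00298, edgeR), and Entpd1, the ectonucleotidase CD39, was higher by 0.59. The call for Maf was lost under several alternatives, among them at least 3 markers (0.13) and the rule on thinned counts (0.18). Rgs16, a regulator of G protein signalling, had the largest rise among genes of 50 CPM or more, at 158 and 155 against 70.1 and 91.4 CPM (0.93 ± 0.12, adjusted p = 6.32e-06, edgeR), followed by Penk, which encodes proenkephalin, at 281 and 221 against 111 and 155 (0.86 ± 0.12). Cd4, Trac, Klf2, Lag3 and Pdcd1 did not pass, with Cd4 at 183 and 194 against 179 and 202 CPM.

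**Figure D5:**
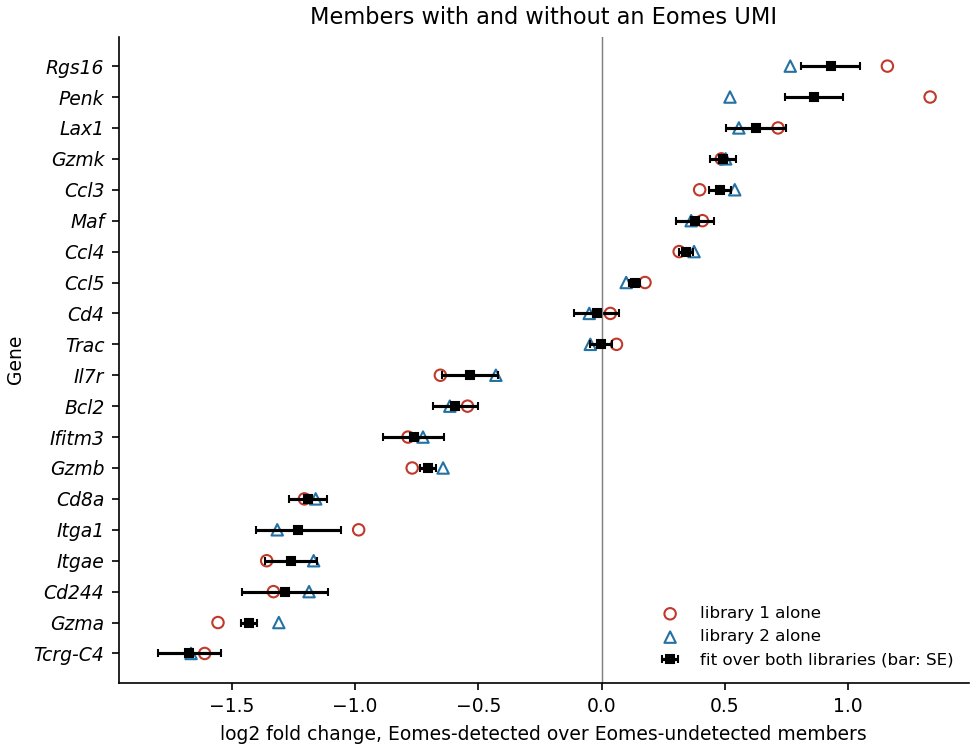
Log2 fold change of 20 genes between members with and without an Eomes UMI (horizontal axis), with black squares for the fit over both libraries and bars for its SE, and open circles and triangles for library 1 and library 2 alone. Both libraries place Gzma, Tcrg-C4, Cd244, Itgae and Cd8a below 0 and Rgs16, Penk, Gzmk and Maf above 0.

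The direction of the Gzma and Gzmk differences was the same under each alternative, but the size was not. With at least 2 of Cxcr3, Klf3 and Eomes required, which takes the pair of Cxcr3 and Art2b out, the log2 difference of Gzma was -0.57, past the threshold, while Itgae (-0.58), Cd8a (-0.16) and Gzmk (0.33) were no longer past it. The count of genes called was then 17, and 14 with at least 3 markers. Neutrophil genes were lower with Eomes for 6 of 6 tested, and more so in library 2, where S100a8 was at 275 against 1091 CPM, than in library 1, where it was at 60.8 against 137 and Ngp was higher with Eomes (log2 difference 0.34). Without cells holding other cell types' UMIs the difference was gone (0.14 for S100a8), and the log2 difference of Gzma (-1.43) was as before. The summed genes of CD8, natural killer or gamma-delta T cells, a list that holds Cd8a and Tcrg-C4, were at 607.8 and 692.8 CPM with Eomes against 1021 and 1022 CPM without, and myeloid genes at 223.5 and 236.8 against 366.5 and 342.6 CPM. The part of the first list in the other results was not tested.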

How the data were processed

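Single-cell 3′ expression libraries of 2 tissue pools were used. The deposited matrices hold whole-number UMI counts per gene and barcode, unfiltered, made by the authors with Cell Ranger 3.1.0 against mm10, per the submitters' processing notes. The 2 hashtag libraries were not used because they hold 0 hashtag features. Cells needed 1000 UMIs, 500 genes and at most 10% mitochondrial UMIs. The members, gene lists and tests were chosen with earlier results of these data known.

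For each comparison, cells were thinned to 1500 UMIs and summed per class and library, and the sums were tested with edgeR's quasi-likelihood test (TMM scaling, Benjamini-Hochberg adjustment over all genes tested, threshold 0.05) without the 18 genes of the rule. The library was a term of the fit, because both classes of a pair come from the same library; all comparisons share the members' sums or are made within them, so their results are not independent. Residual degrees of freedom were 2 for members against other Cd3-detected and against Il10-detected cells, and 1 for the other comparisons. Genes given with values were a panel, up to 4 genes of each list that passed with the largest change, and the 10 largest rises and falls at 50 CPM or more with both libraries in the same direction; the text gives part of them. No doublet caller was run, and 1 alternative left out the 5% of cells with most UMIs. On simulated counts, the test recovered 87% of log2 changes of 1 for the comparison with other cells (9536 genes), 72% with Il10-detected cells (9536), 37.5% with matched cells (8109) and 71.1% for the Eomes split (8072). Alternatives covered scaling, the low-count filter, DESeq2, thinning, the block, the rule, doubtful cells and single libraries; leaving out shared barcodes was chosen after seeing the data. Tests ran in R 4.3.3 with edgeR 4.0.16 and DESeq2 1.42.0, and other steps in Python 3.11.15 with pandas 2.3.3, scipy 1.17.1 and numpy 2.4.6.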

Additional observations from a re-analysis of the deposited data

How the results depend on the processing

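The share of members, 11.6%, was 5.67% with the rule on thinned counts, 3.33% with at least 3 markers and 5.15% with at least 2 of Cxcr3, Klf3 and Eomes, and 8.91% to 14.4% in single libraries. Against other Cd3-detected cells, 1592 genes passed, 527 with DESeq2, 2708 without thinning and 877 with at least 3 markers. Against Il10-detected cells, 677 passed, 261 with DESeq2 (83.5% of them lower, against 72.8%), 2206 without thinning, 429 with the rule on thinned counts and 418 with at least 3 markers. Against matched cells, 152 passed (68.4% lower), 22 with DESeq2 (86.4% lower), 526 without thinning, 100 at 1000 UMIs, 34 with the rule on thinned counts, 34 with at least 3 markers and 52 with at least 2 of Cxcr3, Klf3 and Eomes, and without a low-count filter 55.0% were lower. For the Eomes split, 134 passed (66.4% lower), 19 with DESeq2, 772 without thinning (51.8% lower), 27 with the rule on thinned counts, 14 with at least 3 markers and 17 with at least 2 of Cxcr3, Klf3 and Eomes. Without the library block, the counts were 780, 233, 33 and 66 in that order, and without the barcodes shared by both libraries 1440, 499, 161 and 166. With 1 library no residual degrees of freedom remain, so only fold changes were computed.

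Directions turned, past the threshold on at least 1 side, for few named genes, and the cause was not tested. Against other cells, leaving out cells with UMIs of other cell types gave Camp 0.083, Ngp 0.073, S100a9 0.15 and S100a8 0.12, and Lag3 was 0.26 without thinning. Against Il10-detected cells, Itgae was -0.28 with the rule on thinned counts, -0.47 with at least 3 markers and -0.54 with at least 2 of Cxcr3, Klf3 and Eomes, with Gzma -0.63, -0.91 and -0.92 and Cd8a -0.46, -0.70 and -0.55 in that order, and Itga1 was -0.32 and -0.11 under the last 2. Against matched cells, at least 3 markers gave Itga1 -0.15, Anxa1 -0.38, Gzmb -0.32 and S100a9 -1.71, at least 2 of Cxcr3, Klf3 and Eomes gave Cd160 -0.12 and S100a9 -0.74, and the rule on thinned counts gave Ccr2 0.11, Gzmb -0.37 and Ccl1 -0.037. For the Eomes split, the rule on thinned counts gave Ifitm1 0.26, Lcn2 0.40, S100a9 0.37, Ngp 0.52, Camp 0.10 and S100a8 0.071. At least 3 markers gave S100a9 0.025 and S100a8 0.043, cells without other types' UMIs gave Lcn2 0.46, S100a9 0.037, Ngp 0.11, Camp 0.037 and S100a8 0.14, and Ngp was 0.34 without replicate 2 and -2.34 without replicate 1.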
